A study of Mus musculus with 18 samples.

Results

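The genes described are 9 mouse CC chemokines, Ccl2, Ccl3, Ccl4, Ccl6, Ccl7, Ccl8, Ccl9, Ccl12 and Ccl24, and Ccr1, a receptor for several of them. These 10 of the 48795 genes in the table were chosen by name, from earlier results of the same data in which Ccl8 and Ccl24 stood among the genes with the largest host difference in sorted GFP+ cells. Every comparison that uses a sorted GFP+ group is therefore given as a description, without a test. Tests are given between the unsorted, GFP- and cultured libraries, whose differences did not enter the choice, although earlier results on them were known.

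The samples are GL261 glioma cells carrying green fluorescent protein (GFP), a glioma line of the C57BL/6 mouse, and the tumours these cells formed after injection. Hosts were C57BL/6 mice, either wild type (WT) or Pfp/Rag2-/-, 6 mice of each genotype, and tumours were taken when the mice showed symptoms and dispersed with collagenase. The 6 groups of 3 libraries are GFP- WT (non-tumour cells sorted from WT tumours), GFP+ WT and GFP+ Pfp/Rag2-/- (tumour cells sorted from each host), unsorted WT and unsorted Pfp/Rag2-/- (the dispersed tumours without sorting), and cultured GL261 GFP+ cells, the cells used for injection. All groups carry the same GFP line. Pfp/Rag2-/- mice lack perforin and RAG2; they form no mature T or B cells, while their natural killer (NK) cells, granulocytes and macrophages remain. A GFP- group from Pfp/Rag2-/- hosts was not analysed here. Nothing in the labels tells single mice from pools behind a library, and a p-value here reflects the spread among 3 libraries, which may be technical.

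CC chemokines are small secreted proteins that draw leukocytes along a gradient through G protein-coupled receptors on the cell surface. Several, among them CCL2, CCL7 and CCL12, act through CCR2 on inflammatory monocytes, others through CCR1 on macrophages and lymphocytes, and CCL24 through CCR3 on eosinophils. In glioma much of the CC chemokine output is known to come from microglia and from monocyte-derived macrophages, which can make up a large part of the tumour mass.

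Each library held 19172814 to 21141662 recovered reads. The deposited value is a read count divided by 1 size factor per library, called the level below, and 1 read is worth 0.871 to 1.54. The perforin gene Prf1 had levels of 109, 99.0 and 139 in unsorted WT and of 7.11, 13.6 and 16.2 in unsorted Pfp/Rag2-/- tumours. Rag2 was at 0 in all unsorted WT libraries and at 4.44, 6.34 and 3.61 in unsorted Pfp/Rag2-/-, so its reads do not serve as a check of the genotype. The defining macrophage genes were present in the GFP- sort, where 20 macrophage and microglia markers (such as Csf1r, Aif1 and C1qa) summed to between 633181 and 819702. In culture the same 20 markers summed to between 543 and 652, and 6 of them (Itgam, Aif1, Tyrobp, C1qb, C1qc, Adgre1) were at 0 in all 3 libraries. The sorted GFP+ libraries were not free of these markers. Their sums were 5484 to 17667 in GFP+ WT and 3426 to 16736 in GFP+ Pfp/Rag2-/-, against 41295 to 46131 in unsorted WT and 13302 to 15375 in unsorted Pfp/Rag2-/-.

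Of the 10 genes, 8 lie in a CC chemokine cluster on mouse chromosome 11 (GRCm38). Ccl2 (chr11:82035571-82037453), Ccl7 (chr11:82045712-82047525), Ccl12 (chr11:82101845-82103400) and Ccl8 (chr11:82115185-82116799) follow each other on the plus strand. Ccl9 (chr11:83572919-83578636), Ccl6 (chr11:83587882-83593087) and Ccl3 (chr11:83647844-83649355) lie on the minus strand, and Ccl4 (chr11:83662584-83664683) on the plus strand. Ccl24 is on chromosome 5 (chr5:135569937-135573049, minus strand) and Ccr1 on chromosome 9 (chr9:123962124-123968692, minus strand). Opposite-strand gene models overlap a pair of members. Gm17268, over Ccl2, was at 0 in every library, and E230016K23Rik, over Ccl6, reached at most 29.3, in the GFP- sort. Whether the counting used strand is not given in the sources used here.

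Ccl12 and Ccl8 are neighbours whose log2 host differences in unsorted tumours, 1.89 and 6.65, lay further apart than those of any other neighbouring pair of members, and their upstream sequences are shown for that reason. RefSeq promoter windows (GRCm38.p6) matched 6 of the 10 genes, Ccl3, Ccl6, Ccl8, Ccl9, Ccl12 and Ccr1. The windows below are the 250 bases before each start, on the plus strand, at chr11:82101595-82101844 for Ccl12 and chr11:82114935-82115184 for Ccl8. Capitals mark the runs of at least 7 bases shared at aligned positions.
Ccl12: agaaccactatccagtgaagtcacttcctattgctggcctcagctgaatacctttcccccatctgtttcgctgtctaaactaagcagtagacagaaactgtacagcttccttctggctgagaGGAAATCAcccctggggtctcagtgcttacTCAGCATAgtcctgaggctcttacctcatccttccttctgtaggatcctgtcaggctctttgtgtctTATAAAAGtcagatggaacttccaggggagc
Ccl8: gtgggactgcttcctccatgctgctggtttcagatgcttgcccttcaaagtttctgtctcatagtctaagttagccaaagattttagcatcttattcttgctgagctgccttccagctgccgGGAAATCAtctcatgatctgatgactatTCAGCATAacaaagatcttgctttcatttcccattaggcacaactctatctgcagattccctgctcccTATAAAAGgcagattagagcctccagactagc
The windows were identical at 58.8% of the 250 positions, the highest of 15 pairs among the 6 windows; the other 14 pairs shared 46.8% to 55.2%. They hold 3 shared runs, of which the last contains TATAAA, the letters of a TATA box, searched on both strands. It begins 32 bases before the Ccl8 start and 31 bases before the Ccl12 start. TATAAA occurs in 12.4% of the 32851 promoter windows of the same length, and also in that of Ccl9. The STAT-type letters TTCNNNGAA, held by 7.02% of windows, and the C/EBP letters TTGCNNAA, held by 9.56%, were in none of the 6 windows. The AP-1 letters TGANTCA (6.75% of windows) were in that of Ccl9, and the NF-kB consensus (7.25%) in those of Ccr1 and Ccl9. These matches describe letters only.

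The GFP- sort of WT tumours held the highest levels of all 10 genes. Per kilobase of exon, which allows genes to be set beside each other, the mean level there was 21271 ± 11554 (SD, n = 3) for Ccl8, 10922 ± 2365 for Ccl3 and 10448 ± 3561 for Ccl4. Then came Ccl6 (7747), Ccl24 (5288), Ccl12 (3298), Ccr1 (3121), Ccl9 (2015), Ccl2 (1709) and Ccl7 (1577). The ranges of the 3 libraries overlapped between every pair of neighbours in this order. In culture 7 genes (Ccl3, Ccl6, Ccl8, Ccl9, Ccl12, Ccl24 and Ccr1) were at 0 in all 3 libraries. Ccl2, Ccl4 and Ccl7 were at a few reads there, with levels of 2.83 to 4.71, 0.954 to 1.89 and 0 to 1.89.

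**Figure D1:**
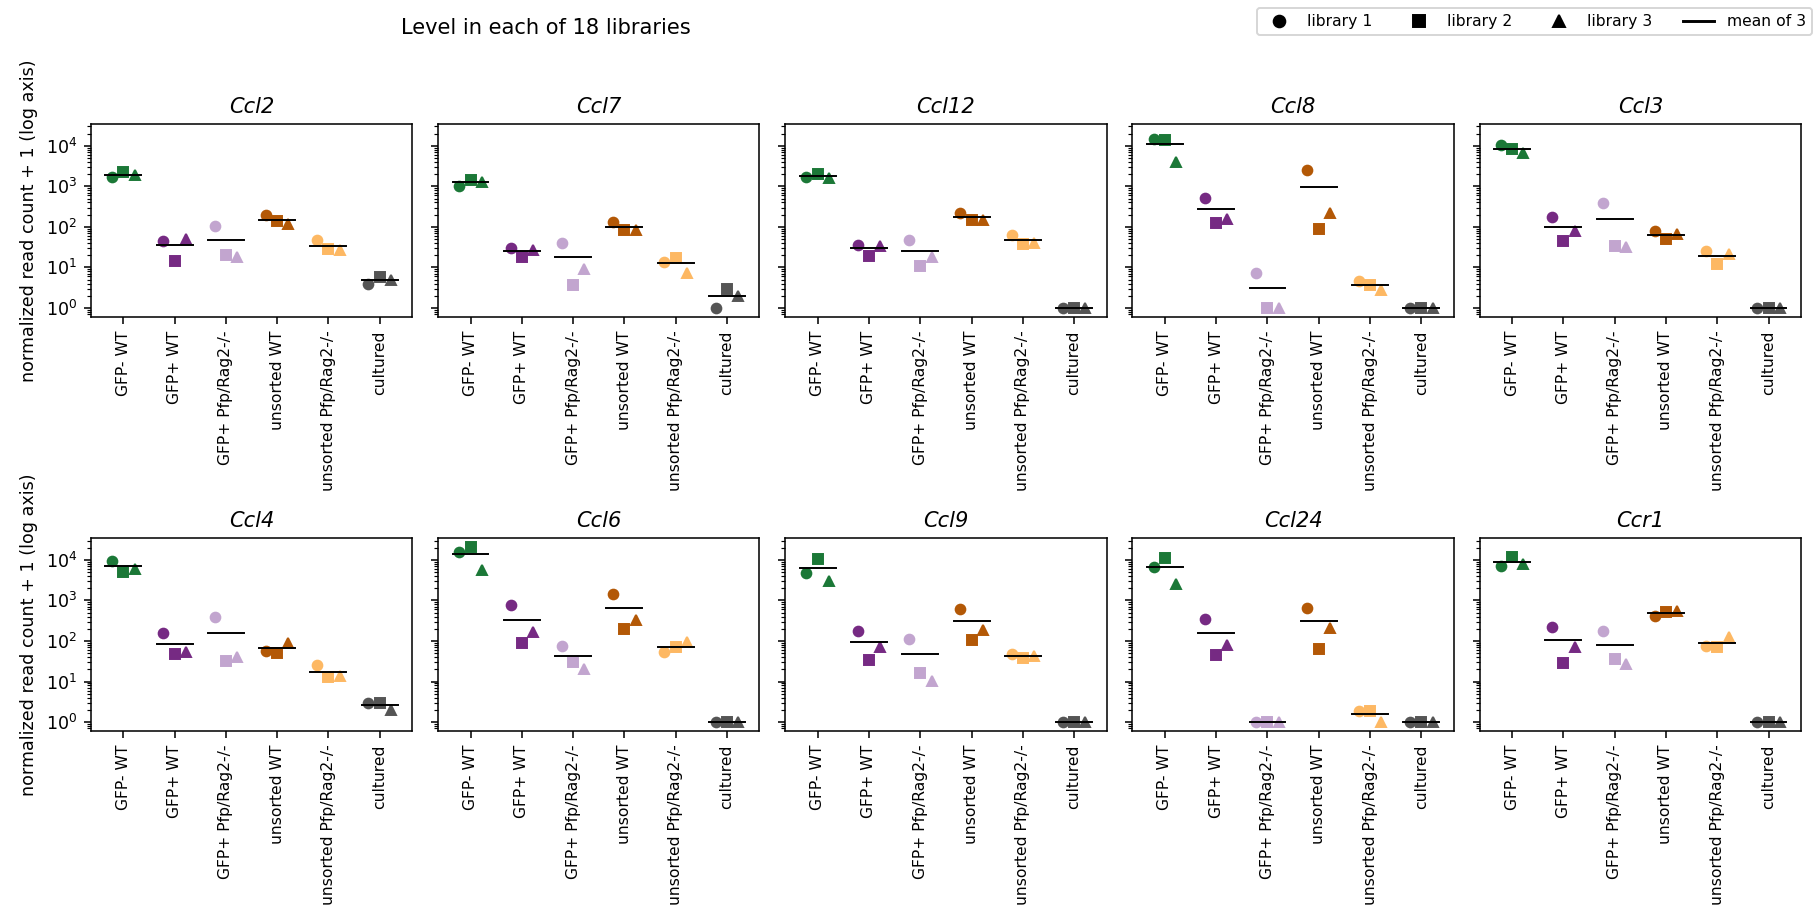
Level (normalized read count plus 1, log axis) of the 10 genes in each of the 18 libraries, by group; symbols are libraries 1 to 3 and bars the mean of 3. Every gene is highest in GFP- WT and lowest in culture or, for Ccl24, equally at 0 in GFP+ Pfp/Rag2-/-; Ccl8 and Ccl24 alone fall to at most 3.55 in unsorted Pfp/Rag2-/-.

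The unsorted tumours of the 2 hosts were compared to see how the levels differ where nothing had been sorted. All 10 genes were called higher in unsorted WT than in unsorted Pfp/Rag2-/- (limma, Benjamini-Hochberg adjusted p under 0.05 over 15448 genes). Over all genes 15.1% were called higher and 14.8% lower. Ccl7, Ccl8 and Ccl24 passed the filter on low values (3 or more compared libraries with a level of 10 or higher) only through the WT libraries; with no filter all 10 were still called, with adjusted p of at most 0.0249 (limma). The median log2 difference of the 10 genes was 2.47, against -0.05 over all genes tested. In bulk samples, fewer cells of a type and less RNA per cell cannot be told apart. The 20 macrophage and microglia markers were also all called higher in WT, by a median of 1.77 and by 0.35 to 2.20. Of 10 T cell markers 9 were tested and 8 called higher in WT (median 3.81). Cd3d, Cd3e, Cd2, Cd8a, Cd8b1 and Cd28 passed the filter only through the WT libraries, which fixed their direction. The 10 summed to 624 to 1056 in unsorted WT, 217 to 296 in unsorted Pfp/Rag2-/- and 184 to 212 in culture. Most of the last 2 sums was Lck, at 180, 165 and 227 in unsorted Pfp/Rag2-/- and 184, 203 and 176 in culture. Of 6 NK cell markers 5 were tested and 1 called higher, with sums of 134 to 213 and 48.9 to 65.8. The part of lymphocytes in the chemokine levels was not tested.

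Ccl2, Ccl7 and Ccl12 encode the monocyte chemoattractants that act on CCR2. Ccl2 had levels of 196, 135 and 119 in unsorted WT and of 46.2, 28.1 and 26.1 in unsorted Pfp/Rag2-/- tumours, a log2 difference of 2.14 (SE 0.29; limma, adjusted p = 0.00243). Ccl12 had 219, 148 and 147 against 62.2, 37.1 and 38.8, a difference of 1.89 (SE 0.27; adjusted p = 0.00279, limma). Ccl7 stood at 131, 81.0 and 81.9 against 12.4, 16.3 and 6.31. Its log2 difference of 3.01 (SE 0.38; limma, adjusted p = 0.00179) was the largest of these 3. The groups did not overlap for any of the 3, and the share of all genes without overlap was not counted here.

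Ccl8, which encodes a monocyte chemoattractant that in the mouse signals through CCR8, had levels of 2499, 86.4 and 218 in unsorted WT and of 3.55, 2.72 and 1.80 in unsorted Pfp/Rag2-/-. The WT libraries spanned a wide range, yet the lowest of them was far above every Pfp/Rag2-/- library. Together the groups held 3055 and 9 reads. The log2 difference was 6.65 (SE 1.10; limma, adjusted p = 0.00491). Without unsorted WT library 1 it was 5.25, and without library 2 it was 7.67, both still called. It was 4.91 on log2(value + 10), 8.43 in edgeR and 8.49 in DESeq2.

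Ccl24 encodes eotaxin-2, which acts on CCR3. It had levels of 649, 63.9 and 204 in unsorted WT and of 0.888, 0.906 and 0 in unsorted Pfp/Rag2-/-. These are 1008 reads against 2, a ratio of 503 with a Clopper-Pearson 95% interval of 139 to 4161, which covers counting error only. The gene was called higher in WT (limma, adjusted p = 0.00111). The fitted log2 difference of 7.06 rests on a group of 2 reads and moved from 4.37 to 9.04 over the alternatives; it was 6.23 without unsorted WT library 1 and 7.89 without library 2.

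Ccl6 and Ccl9, neighbouring genes whose products act through CCR1, had in common a high unsorted WT library 1. Ccl6 had levels of 1451, 195 and 327 in unsorted WT and of 52.4, 71.6 and 91.1 in unsorted Pfp/Rag2-/-, a log2 difference of 2.68 (SE 0.67; limma, adjusted p = 0.0236). Ccl9 had 625, 105 and 189 against 46.2, 37.1 and 40.6, a difference of 2.47 (SE 0.58; limma, adjusted p = 0.0188). Both calls depended on the libraries kept. Leaving out unsorted Pfp/Rag2-/- library 1, 2 or 3 gave adjusted p = 0.0683, 0.0772 and 0.0573 for Ccl6. For Ccl9, leaving out library 2 or 3 of that group gave adjusted p = 0.0710 and 0.0609 (limma). Without unsorted WT library 1 the differences were 1.84 for Ccl6 and 1.75 for Ccl9, and both were called; without library 2, that of Ccl6 was 3.28.

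Ccl3 and Ccl4, which encode macrophage inflammatory proteins, were low in both unsorted groups. Ccl3 had levels of 76.6, 49.5 and 65.3 in WT and of 24.0, 10.9 and 20.7 in Pfp/Rag2-/-, a log2 difference of 1.78 (SE 0.35; limma, adjusted p = 0.00922). Ccl4 had 56.3, 49.5 and 88.8 against 24.0, 11.8 and 12.6, a difference of 1.97 (SE 0.36; limma, adjusted p = 0.00744). With all 18 libraries in 1 limma fit, neither passed (adjusted p = 0.0836 for Ccl3 and 0.0545 for Ccl4).

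The receptor gene Ccr1 had levels of 409, 529 and 545 in unsorted WT and of 74.6, 71.6 and 124 in unsorted Pfp/Rag2-/-. Its log2 difference was 2.48 (SE 0.24; limma, adjusted p = 0.000630). Unlike the chemokines of the previous groups, its WT library 1 was the lowest of the 3.

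Because the macrophage markers differed between the hosts, the comparison was repeated with each library scaled to the median share of those 20 markers, a setting added after the data were seen. The scale itself was taken as known, without error. On this scale the median of all genes moved to -1.77, with 219 genes called higher and 14459 lower (2326 and 2294 before), so values are relative to the markers. Because most genes were called on it, the adjustment over all genes was weak, and its adjusted p cannot be set beside those above. Ccl8 (log2 difference 4.93, adjusted p = 9.49e-05), Ccl24 (5.34, adjusted p = 3.23e-06), Ccl7 (1.29, adjusted p = 0.00469) and Ccr1 (0.76, adjusted p = 0.0109) were still called higher in WT by limma. Ccl7, Ccl8 and Ccl24 had passed the filter only through the WT libraries, and the scaled setting was not run without the filter. The other 6 were not: Ccl6 at 0.96 (adjusted p = 0.102), Ccl9 at 0.75 (0.136), Ccl2 at 0.42 (0.160), Ccl4 at 0.25 (0.483), Ccl12 at 0.17 (0.531) and Ccl3 at 0.06 (0.870). Ccl12 and Ccl8, whose upstream windows are printed above, thus stood at 0.17 and 4.93.

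**Figure D2:**
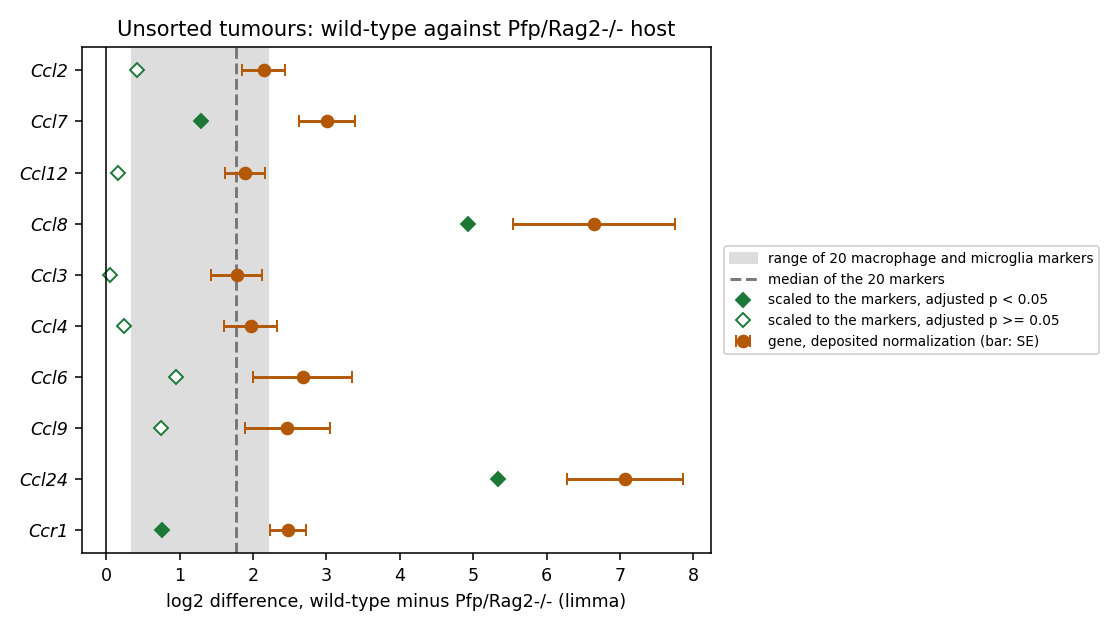
Log2 difference between unsorted WT and unsorted Pfp/Rag2-/- tumours (limma, bars SE, n = 3 libraries a group), with the values scaled to 20 macrophage and microglia markers as diamonds. Ccl8 and Ccl24 lie far to the right of the marker range of 0.35 to 2.20; the bar of Ccl24 is a fitted value against a group of 2 reads.

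In unsorted WT library 1 several of the genes were high at once. Its level was 16.4 times the mean of libraries 2 and 3 for Ccl8, 5.56 times for Ccl6, 4.85 times for Ccl24 and 4.25 times for Ccl9. For Ccl2, Ccl3, Ccl7 and Ccl12 the ratio was between 1.33 and 1.61, and for Ccl4 and Ccr1 it was 0.814 and 0.761. Of 14 genes of border-associated and alternatively activated macrophages, 11 were highest in the same library, 2 (Stab1 and Mgl2) lay between the other libraries and Ms4a7 was lowest there. Among the 11, Lyve1 and Folr2 were low even in library 1, at 11.1 and 10.1. Arg1 was at 3.89 times and Mrc1 at 3.29 times the mean of libraries 2 and 3, and Chil3 and Retnla, picked after their values were seen, at 90.03 and 30.3 times. Of 7 neutrophil markers 6 had a GFP- mean of at least 50. Their median share, relative to the GFP- mean, was 12.2% in library 1 and 2.49% and 3.13% in libraries 2 and 3. Of all 7, 5 were highest in library 1, among them Ly6g on 1 read. Csf3r, the only 1 of the 7 that passed the filter between the unsorted hosts, was lowest there, at 145, 179 and 202. Cxcr2 lay between the other libraries. Of 6 eosinophil markers 4 had such a mean, with median shares of 4.63%, 0.649% and 1.36%, and 4 of all 6 were highest in library 1. For the 20 pan-macrophage markers the median share was 6.33% in library 1 and 5.82% and 6.54% in the others. Lists of other cells differed there too. All 4 glioma line markers were highest in library 1, with sums of 80579, 56106 and 58140 in libraries 1 to 3. Most of each sum was Vim, at 63598, 42942 and 44490. Cd44, also on this list, was higher in GFP- WT (14663, 19220 and 6408) than in GFP+ WT (4553, 4395 and 3107). The sums therefore do not measure the glioma line alone. Of 10 T cell markers 8 were lowest in library 1, and of 7 pericyte and fibroblast markers 5. The part of these cells and genes in the chemokine values was not tested.

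Between the hosts, 7 of 9 tested genes of a list of 14 border-associated and alternatively activated macrophage genes were called higher in unsorted WT and none lower (limma). Of these, Arg1, Mgl2, Pf4 and Clec10a passed the filter only through the WT libraries, which favours a higher call there. Arg1, arginase 1, differed by 7.53 (adjusted p = 0.000336), Mgl2 by 4.60, Mrc1, the mannose receptor, by 3.98, Pf4 by 3.55, Clec10a by 3.36, Ms4a7 by 2.38 and Stab1 by 1.66. F13a1 (adjusted p = 0.0545) and Chil3 (adjusted p = 0.356) did not pass. Cd163, Lyve1, Folr2, Cbr2 and Retnla were below the filter and not tested. The list summed to between 3035 and 10270 in unsorted WT and to between 457 and 527 in unsorted Pfp/Rag2-/-.

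Among 8 other CC chemokine ligands, 5 passed the filter in this comparison, 4 called higher and 1 lower in unsorted WT. Ccl5, known as a T cell and NK cell product, differed by 2.51 (limma, adjusted p = 0.00110). The cultured line also held Ccl5, at 162, 150 and 204, above the 74.6, 66.1 and 69.4 of unsorted Pfp/Rag2-/-. Ccl22 differed by 1.49, Ccl11, eotaxin-1, by 1.46 (limma, adjusted p = 0.0492) and Ccl25 by 0.52. Ccl28, a mucosal chemokine, was lower in WT, at -1.19 (adjusted p = 0.0385). Ccl22 and Ccl11 passed the filter only through the WT libraries, and Ccl28 only through the Pfp/Rag2-/- libraries. Of 13 other receptors, 7 passed the filter, with 4 called higher in WT and 1 lower. Ccr7 (2.49), Ccrl2 (2.06) and Ccr2 (1.67) were among those higher, and Ackr1, the vascular decoy receptor, was lower (-0.84, adjusted p = 0.0417). Ccr7 passed the filter only through the WT libraries. Ackr2 (0.10, adjusted p = 0.887) and Ccr10 (-0.28, adjusted p = 0.383) were not called.

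The receptors of the 2 most host-dependent ligands were rare outside the GFP- sort. Ccr3, the CCL24 receptor of eosinophils, had levels of 3645, 1884 and 625 in GFP- WT, of 60.0, 1.80 and 26.1 in unsorted WT and of 0, 3.62 and 0.902 in unsorted Pfp/Rag2-/-. Ccr8 had 443, 421 and 552 in GFP- WT, 2.77, 12.6 and 19.2 in unsorted WT and 0.888, 0 and 0 in unsorted Pfp/Rag2-/-. Neither passed the filter in the host comparison. The 6 eosinophil markers summed to between 17.99 and 88.6 in unsorted WT and to between 15.4 and 34.6 in unsorted Pfp/Rag2-/-, where 4 of 6 (Prg2, Il5ra, Ear1, Ear6) were at 0 in every library.

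Against the cultured cells, both unsorted groups were compared to see which of the genes the tumours added to the line. The 2 comparisons share the cultured libraries, and the first shares unsorted WT with the host comparison above. In culture no library had a level above 4.71 for any of the 10 genes, so each could pass the filter on low values only through the tumour libraries, and the direction of a call was fixed by the filter. In unsorted WT all 10 passed and were called higher than in culture (limma); over all genes 30.3% were called higher and 28.0% lower, and nothing is read from the one against the other. With no filter the largest adjusted p among the 10 was 0.000187 (limma). With the genes at 0 in culture set to a floor of 3 reads per library, unsorted WT was at least 329-fold higher for Ccl8, 231-fold for Ccl6, 174-fold for Ccr1, 108-fold for Ccl9, 107-fold for Ccl24, 60.3-fold for Ccl12 and 22.5-fold for Ccl3. Without unsorted WT library 1 the bounds were 53.5-fold for Ccl8, 91.8-fold for Ccl6, 51.8-fold for Ccl9 and 47.1-fold for Ccl24, while those of Ccr1, Ccl12 and Ccl3 stayed within 1.5 times. Ccl7 had 326 reads against 3, a ratio of 103 (95% interval 34.9 to 502). Ccl2 differed by 4.97 (SE 0.27; adjusted p = 3.78e-06) and Ccl4 by 4.65 (SE 0.32; adjusted p = 1.15e-05) on the log2 scale.

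In unsorted Pfp/Rag2-/- tumours, 7 of the 10 genes passed the filter and were called higher than in culture (limma), again a direction fixed by the filter; over all genes 39.1% were called higher and 33.6% lower. With no filter 9 of the 10 were called, and the largest adjusted p was 0.202 (limma). The tumours were at least 31.7-fold higher for Ccr1, 25.2-fold for Ccl6, 16.2-fold for Ccl12, 14.5-fold for Ccl9 and 6.52-fold for Ccl3. Ccl2 differed by 2.82 (SE 0.32; adjusted p = 3.96e-05) and Ccl4 by 2.69 (SE 0.39; adjusted p = 0.000206) on the log2 scale. The genes below the filter were Ccl7, Ccl8 and Ccl24, with 39, 9 and 2 reads over the 3 tumour libraries. Ccl7 held 3 reads in culture, a ratio of 12.3 (95% interval 3.92 to 62.4). For Ccl8 and Ccl24, reads in the tumours were at or under 3 per library on average, so no fold against culture is given. Per kilobase, Ccl12 led the order in these tumours at 85.7 ± 26.1 (SD, n = 3), apart from Ccl6 at 39.9, and Ccl8 (5.27) and Ccl24 (0.462) came last, each apart from the gene above it. In unsorted WT Ccl8 led at 1829 ± 2655 and all neighbours overlapped.

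The GFP- sort was set beside unsorted WT tumours to see how the levels differ between sorted non-tumour cells and the whole tumour. The sorting step and the choice of cells cannot be told apart in this comparison. All 10 genes were called higher in GFP- WT (limma), against 39.9% of all genes higher and 33.8% lower. The differences were uneven. Ccl3 rose from 76.6, 49.5 and 65.3 in unsorted WT to 10286, 8126 and 6686 in GFP-, a log2 difference of 7.01 (SE 0.22; adjusted p = 7.35e-07). Ccl4 had 9535, 5028 and 6124 in GFP-, a difference of 6.70 (SE 0.29; adjusted p = 1.88e-06). These are folds of 129 and 104.

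The other 8 genes differed by 3.38 to 4.82, inside or at the edge of the range of the 20 macrophage markers (2.69 to 4.79, median 3.97). Lists of other leukocytes covered much of the same range. It was 2.91 to 6.50 for neutrophil, 4.22 to 5.48 for NK cell and 2.91 to 6.02 for T cell markers. Ccl12 was lowest at 3.38 (SE 0.20; GFP- levels 1669, 2032 and 1613), followed by Ccl7 at 3.70 and Ccl2 at 3.71. Ccr1, with 7009, 11574 and 7941 in GFP-, differed by 4.14. Ccl9 differed by 4.52 (SE 0.67), Ccl8 by 4.69 (SE 1.14), Ccl6 by 4.75 (SE 0.75) and Ccl24 by 4.82 (SE 0.84; adjusted p = 0.00121, limma). For these 4 genes GFP- library 3 was the lowest of its group and unsorted WT library 1 the highest. Without unsorted WT library 1 the values were 5.24 for Ccl9, 6.09 for Ccl8, 5.59 for Ccl6 and 5.65 for Ccl24. Without unsorted WT library 2 they were 3.67 for Ccl8, 4.15 for Ccl6 and 3.99 for Ccl24, and without GFP- library 3 they were 5.30 for Ccl8 and 5.41 for Ccl24. For Ccl8 edgeR gave 3.41.

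Scaled to the macrophage markers, Ccl3 (3.01, adjusted p = 6.91e-07) and Ccl4 (2.70, adjusted p = 1.88e-05) remained higher in GFP- WT by limma. On that scale Ccl12 was lower (-0.63, adjusted p = 0.0162), and the other 7, between -0.31 and 0.82, were not called, with adjusted p between 0.236 and 0.542. The median of all genes stood at -3.89, with 427 genes higher and 14502 lower (6545 and 5556 before), so the adjustment over all genes was weak here too. The receptor-like gene Ccrl2 (7.27) and Ccr7 (6.38), the receptor of migrating dendritic cells, had unscaled differences of the size of those of Ccl3 and Ccl4. Among the other receptors Ccr3 differed by 6.61, Ccr8 by 5.54 and Ccr2 by 2.96. Of 13 other receptors, 9 were called higher and 2 (Ccr10 and Ackr2) lower among 12 tested. Of 8 other ligands, 4 (Ccl1, Ccl5, Ccl17, Ccl22) were called higher and Ccl25 lower among 6 tested. Ccl1, Ccl17, Ccr3 and Ccr8 were among those that passed the filter only through the GFP- libraries.

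**Figure D3:**
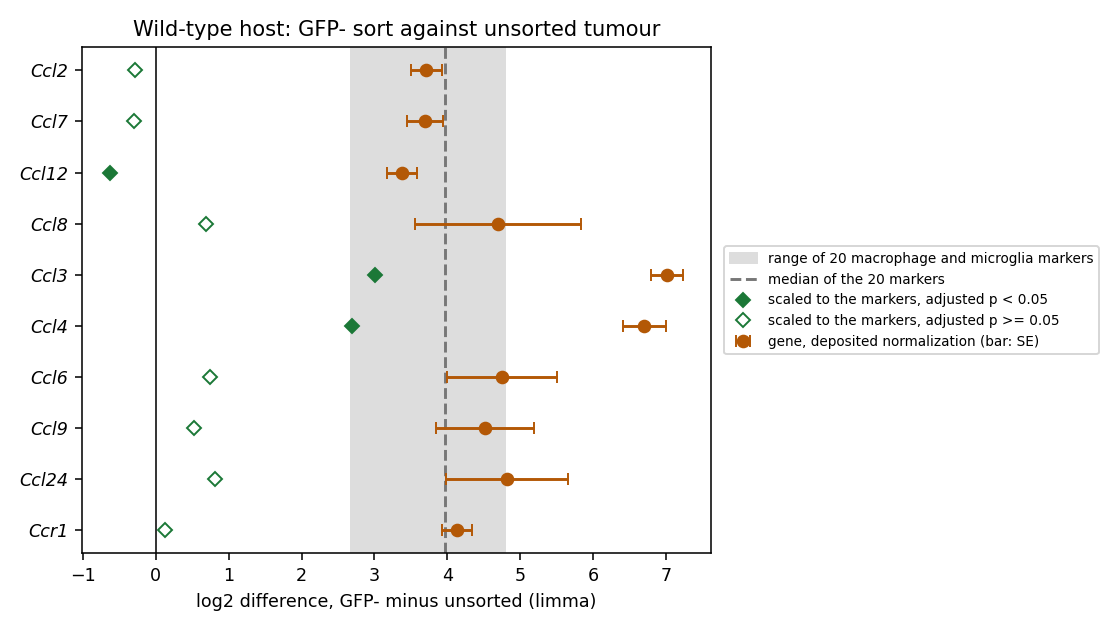
Log2 difference between the GFP- sort and unsorted tumours of WT hosts (limma, bars SE, n = 3 libraries a group), with the values scaled to 20 macrophage and microglia markers as diamonds. Ccl3 at 7.01 and Ccl4 at 6.70 lie to the right of the marker range of 2.69 to 4.79; on the marker scale Ccl2, Ccl7 and Ccl12 fall below 0.

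The sorted GFP+ cells are the samples whose values led to the choice of genes, and the following is description. Ccl8 had levels of 521, 125 and 158 in GFP+ WT and of 6.39, 0 and 0 in GFP+ Pfp/Rag2-/-. Ccl24 had 355, 44.7 and 78.3 in GFP+ WT, that is 503 reads, and 0 in all 3 GFP+ Pfp/Rag2-/- libraries, so it was at least 57.9-fold higher in WT, or at least 22.3-fold without GFP+ WT library 1. Ccl6 had 755, 86.5 and 169 against 74.0, 28.5 and 19.3. For these 3 of the 10 genes all GFP+ WT libraries lay above all GFP+ Pfp/Rag2-/- libraries; over all genes 23.4% did so. The log2 differences of Ccl8 and Ccl6 were 6.81 (SE 0.90) and 2.65 (SE 0.82), with ranges of 4.28 to 7.78 and 1.78 to 3.33 over the other settings and left-out libraries.

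For the other 7 genes the hosts overlapped in the sorted cells. Ccl9 had levels of 176, 33.3 and 69.1 in GFP+ WT against 111, 15.6 and 9.21 in GFP+ Pfp/Rag2-/-, and Ccl7 had 28.7, 17.1 and 25.8 against 39.3, 2.76 and 8.29. Over the other settings and left-out libraries the log2 difference was 0.80 to 2.53 for Ccl9 and 0.33 to 2.04 for Ccl7. It changed sign for the other 5, from -0.29 to 1.29 for Ccr1, -0.03 to 1.00 for Ccl12, -0.45 to 1.37 for Ccl3, -0.54 to 0.71 for Ccl2 and -0.77 to 1.03 for Ccl4, so no direction is given for them. Ccl3 and Ccl4 were highest in GFP+ Pfp/Rag2-/- library 1, at 390 and 388, and at most 39.6 in its libraries 2 and 3. In GFP+ WT they were 172, 42.8 and 79.2 and 156, 46.6 and 52.5. In unsorted tumours the same 7 genes had all been called higher in WT, and the difference between the sorted and unsorted contrasts was not tested.

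Markers of other cells were present in the same sorted libraries. The 20 macrophage markers had median shares of the GFP- mean of 2.45%, 0.590% and 1.37% in the 3 GFP+ WT libraries and of 2.43%, 0.429% and 0.414% in the 3 GFP+ Pfp/Rag2-/- libraries. Library 1 was the highest in both hosts. Over the 6 NK cell markers the median share was 20.4%, 0.886% and 0.409% in GFP+ Pfp/Rag2-/-, and their sum ranged from 23.9 to 888 there and from 21.9 to 254 in GFP+ WT. The 6 eosinophil markers summed to between 6.65 and 111 in GFP+ WT, with Ear1 at 0, and to between 0.918 and 15.5 in GFP+ Pfp/Rag2-/-, with Epx, Ear1 and Ear6 at 0. Ccr3 followed with 204, 2.85 and 0 in GFP+ WT. The part of such cells in the GFP+ values was not tested.

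On the same scale the 10 genes could be set against the markers library by library. In GFP+ WT the level as a percent of the GFP- mean was 4.79%, 1.15% and 1.46% for Ccl8, 5.43%, 0.622% and 1.21% for Ccl6 and 5.19%, 0.652% and 1.14% for Ccl24. It was 2.00%, 1.02% and 1.87% for Ccl12 and 2.44%, 0.312% and 0.792% for Ccr1. In GFP+ Pfp/Rag2-/- it was 0.0588%, 0 and 0 for Ccl8, 0 in all 3 for Ccl24 and 0.532%, 0.205% and 0.139% for Ccl6, all below the macrophage share of the same library. Ccl9 and Ccr1 were also below that share in all 3 libraries, and Ccl2, Ccl4 and Ccl12 were above it in all 3. Ccl3, at 4.66%, 0.395% and 0.363% there, and Ccl7 lay above it in some libraries and below it in others.

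In the unsorted tumours the shares differed between the genes. Ccl2, Ccl7 and Ccl12 had 6.13% to 12.3% of the GFP- mean in unsorted WT, around or above the 5.82% to 6.54% of the macrophage markers. Ccr1 had 4.62% to 6.17%. Ccl3 and Ccl4 had only 0.591% to 1.29%. Ccl6, Ccl8, Ccl9 and Ccl24 varied most, from 0.795% to 22.99% over the 3 libraries, with library 1 the highest of each. In unsorted Pfp/Rag2-/-, where the markers stood at 1.76% to 2.10%, Ccl12 had 2.10% to 3.51%, Ccl6 and Ccl9 0.377% to 0.753%, Ccl8 0.0166% to 0.0327% and Ccl24 at most 0.0132%. Unsorted tumours of this host were lower than its GFP+ sort for Ccl3 (log2 difference -2.01, SE 0.94) and Ccl4 (-2.29, SE 0.91). Without GFP+ Pfp/Rag2-/- library 1 these were -0.81 and -1.15, and over all left-out libraries and settings they reached -2.63 and -2.94.

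**Figure D4:**
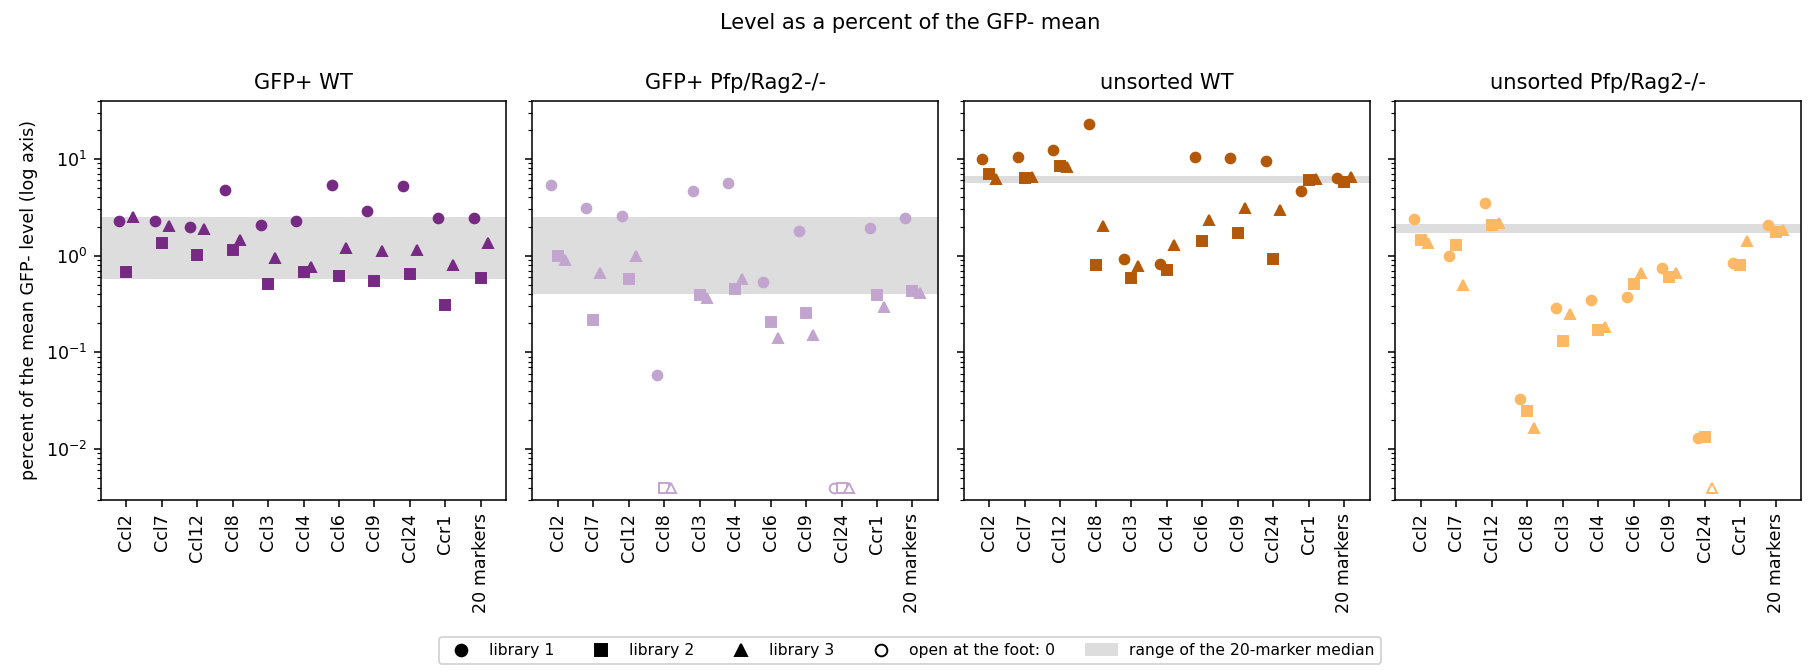
Level of each gene as a percent of its mean in the GFP- sort (log axis) in the sorted GFP+ and unsorted libraries of each host; the band is the range of the median of 20 macrophage and microglia markers, and open symbols at the foot are at 0. Ccl8 and Ccl24 drop to 0.0588% or less in both Pfp/Rag2-/- panels, and Ccl3 and Ccl4 lie under the band in both unsorted panels.

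Across the 18 libraries, Pearson's r of log2(value + 1) was highest for the pairs Ccl3 and Ccl4 (0.991), Ccl6 and Ccl9 (0.991), Ccl12 and Ccr1 (0.990) and Ccl8 and Ccl24 (0.987), and lowest for Ccl3 and Ccl24 (0.805). The libraries fall into groups that share host and sort, so these values are descriptions of the group pattern. Among 17501 genes, members left out, the pattern of Ccl8 was most like those of Arg1 (0.984), F7, coagulation factor VII (0.972), Mrc1 (0.971), H2-M3 (0.968) and Dnmt3l (0.965). That of Ccl24 was most like Arg1 (0.981), H2-M2 (0.972), Tmem26 (0.970), B2m, the light chain of MHC class I (0.970), and Mcpt2, a mast cell protease (0.970). Arg1 had levels of 4181, 806 and 1345 in unsorted WT and of 14.2, 5.44 and 6.31 in unsorted Pfp/Rag2-/-. Its highest library was the same as that of Ccl8 and Ccl24.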

How the data were processed

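Messenger RNA of 18 libraries was measured in 6 groups of 3. Per the submitters' processing notes, the authors used STAR 2.5.2b, DESeq2 and GRCm38; the annotation release and read counter were not given in the sources used here. The deposited signal is a read count divided by 1 size factor per library (0.649 to 0.761 in GFP-, 1.04 to 1.15 otherwise). All values were whole multiples of 1 read within 0.05 reads, so reads were recovered for count-based alternatives; the plan for normalized values was followed. GENCODE vM21 named 48435 of 48795 genes and gave positions and exon lengths.

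Genes with a level of at least 10 in at least 3 fitted libraries were tested on log2(value + 1) with limma 3.58.1 (R 4.3.3; eBayes with trend, two-sided, Benjamini-Hochberg over all genes tested), each comparison on its own 6 libraries. A log2 difference on this scale understates changes of low genes. The test was tested on simulated data. Floors are 3 reads per library, and intervals (scipy 1.17.1) and floors cover counting error only. Promoter windows were aligned with biopython 1.88. Members and marker lists were chosen with earlier results of these data known. Named genes are the 10 members, called genes and member receptors of both other CC lists, markers a result turns on, and the 5 genes most correlated with Ccl8 and with Ccl24; 1 gene of these lists is not reported here by name and stays in the counts. Alternatives were log2(value + 10), no filter, a filter of 50, TMM factors, edgeR 4.0.16, DESeq2 1.42.0, 1 fit of 18 libraries, a replicate block, and each library left out with the gene set kept.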

Additional observations from a re-analysis of the deposited data

How the results depend on the processing

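Of 509 other settings tried for single genes in the tested comparisons, 502 kept direction and call, 7 lost the call (Ccl3, Ccl4, Ccl6 and Ccl9 between the unsorted hosts, given above) and none changed sign. Counts of called genes among the 10 stayed within 1.5 times the reported count in 111 of 112 settings, though not always at the same number: between the unsorted hosts they were 8 to 10. With a filter of 50, 2 genes were called higher in unsorted Pfp/Rag2-/- than in culture, since fewer genes were tested. Scaling to macrophage markers, chosen after seeing the data, left 4 called higher between the unsorted hosts. In GFP- against unsorted WT it left 2 higher and 1 lower, and the differences of Ccl2, Ccl7 and Ccl12 were -0.29, -0.31 and -0.63. TMM factors moved the median of all genes in that comparison from 0.11 to -0.003, and the 10 calls held.

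Over all genes, 2326 were called higher and 2294 lower between the unsorted hosts; without unsorted WT library 1 these were 3050 and 3092, without unsorted WT library 3 they were 1514 and 1558, and without unsorted Pfp/Rag2-/- library 1, 2 or 3 they were 1662 and 1396, 1297 and 983, and 1602 and 1275. The cause was not tested. Between the unsorted hosts, replicate numbers did not pair the libraries: same-numbered libraries had correlations of -0.22, 0.11 and -0.41 in their deviations. Whether the numbers pair the GFP- and GFP+ sorts of WT tumours was not examined. With the replicate block, 1853 and 1698 genes were called between the unsorted hosts, and all 10 genes kept their call, with adjusted p of at most 0.0434 (limma). Of 516 alternatives for the descriptions, 16, all on log2(value + 10), moved by more than 1 SD. Depth limits Ccl8, Ccl24 and Ccl7 in Pfp/Rag2-/- tumours and all 10 genes in culture.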
